A study of Mus musculus with 20 samples.

Results

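The genes described here are the variable, diversity, joining and constant segments of the mouse T cell receptor loci, taken as every table row whose symbol matches the pattern ^Tr[abgd][vdjc]. That pattern found 133 of the 26099 genes in the acute table and 150 of the 26486 genes in the survival table. A single such row was Tradd, an adaptor protein of death receptor signaling and not a receptor segment, which was left out of both tables. The remaining 132 acute and 149 survival rows came to 161 different segments, of which 120 were listed in both tables. Tradd itself gave an adjusted p of 0.897 in the acute table and 0.941 in the survival table (limma).

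A T cell receptor chain is assembled in the thymus by joining a variable segment to a joining segment, with a diversity segment between them in the beta and delta chains, and splicing the product to a constant region. The beta chain is assembled before the alpha chain, and paired with the surrogate chain encoded by Ptcra it forms the pre-receptor of immature thymocytes. A clone carries the segments it rearranged into all its daughter cells, so the mix of variable segments in T-cell RNA is used as a readout of clonality. Unrearranged segments and constant regions are also transcribed in thymocytes, so a segment's RNA does not by itself show a productive receptor.

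The samples were bulk RNA from the spleens of sub-lethally irradiated mice transplanted with T cell acute lymphoblastic leukemia (T-ALL) cells that carried a conditional Acly allele. Acly encodes ATP citrate lyase, which makes cytosolic acetyl-CoA from citrate. In the acute experiment mice with overt leukemia received corn oil vehicle (6 control libraries) or 3 mg tamoxifen in corn oil (4 knockout libraries), with collection 72 h later. In the survival experiment the same agents were given 48 h from transplantation and the leukemia then ran to the humane endpoint (5 control and 5 knockout libraries). Controls therefore carried the conditional allele too and differed in receiving no tamoxifen. The recombinase and its driver, the ages of the mice, and whether all leukemias came from 1 donor tumor were not given in these sources. Nor do the labels tie each library to its own mouse, so p-values measure the spread between libraries.

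Values are normalized counts, scaled by the submitters within each table, and they sum to between 19432235 and 21623571 per library. Acly stood at 7406 to 8280 in the acute controls and at 4823 to 6402 in the acute knockouts. In the survival table it stood at 7396 to 8825 in controls and 2174 to 4017 in knockouts. Knockouts thus lay below controls in both tables and kept some Acly RNA, the acute knockouts more than the survival knockouts. How much of the acute fall went with that of other T-lineage RNA (described below) was not tested. The labelled leukemia was checked against genes of immature T cells. Ptcra was at 5384 or above and the recombinase gene Rag1 at 18082 or above in every library. In the acute table most genes of fixed marker lists were called higher in knockouts, against 16.7% of all genes tested. These were all 10 neutrophil, all 10 B cell, all 10 monocyte and macrophage genes and 6 of 7 tested NK cell genes. The summed neutrophil list spanned 11596 to 45665 over the 6 controls and 169203 to 585094 over the 4 knockouts, and acute knockouts 2 and 3 had the highest mean score over the 4 lists. In the survival table none of these genes was called, and the neutrophil sum ran from 4933 to 24778 in controls and from 2553 to 27601 in knockouts. Spleen cells of several types were therefore in these samples. The sources used here do not say how many were leukemic.

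The 3 beta variable segments that held most of the signal lie in the beta locus on chromosome 6 and have distinct sequences. In the annotated order of the locus (GENCODE M21, build GRCm38, used here for names, order and sequence only), Trbv1 comes first and Trbv2 second. Trbv26 comes 30th, before the joining and constant segments. No stretch of 31 bases is shared between any pair of them, so counting them apart does not rest on a few mismatches. The last 60 bases of each annotated segment are shown, with the final 12 bases in capitals because that end is where the diversity or joining segment is attached.
Trbv26: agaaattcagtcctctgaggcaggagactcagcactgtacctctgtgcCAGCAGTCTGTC
Trbv2: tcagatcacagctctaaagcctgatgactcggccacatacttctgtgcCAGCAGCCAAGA
Trbv1: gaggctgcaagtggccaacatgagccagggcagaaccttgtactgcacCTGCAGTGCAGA

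Among alpha variable segments the opposite holds, and some rows cannot be told apart. Trav6n-7 and Trav6d-7 have identical annotated sequences over all 358 bases, and their values were identical in every library of both tables. They are therefore summed where shares are described below, but the measures of evenness count each row alone. Other rows with identical values, such as Trav4d-4 and Trav4n-4, were not summed. Trav6-7-dv9 shares 67.4% of the 31-base stretches of Trav6n-7, and its 2 differences within the last 60 bases are in capitals.
Trav6n-7: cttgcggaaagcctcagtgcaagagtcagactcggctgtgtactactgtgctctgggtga
Trav6d-7: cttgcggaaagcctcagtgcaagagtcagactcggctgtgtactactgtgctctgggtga
Trav6-7-dv9: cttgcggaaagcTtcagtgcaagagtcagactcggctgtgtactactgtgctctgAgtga
Trav16n, the segment that led the alpha signal in 1 library, shares 60.5% of its 31-base stretches with Trav16. It is shown with Trav16 and Trav16d-dv11, with the single difference of each from Trav16n within these 60 bases in capitals. Over the annotated segments Trav16 has 6 differences from Trav16n and Trav16d-dv11 has 26.
Trav16n: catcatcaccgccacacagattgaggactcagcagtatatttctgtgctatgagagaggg
Trav16: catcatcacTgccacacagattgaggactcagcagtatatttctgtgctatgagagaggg
Trav16d-dv11: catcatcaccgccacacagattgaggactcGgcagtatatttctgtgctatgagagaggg

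In 19 of the 20 libraries Trbv26 was the highest beta variable segment. It held 64.2% to 67.9% of the summed Trbv value in the 6 acute controls and 61.8% to 66.2% in the 4 acute knockouts. In the survival controls it held 65.3%, 65.2%, 66.3%, 54.0% and 65.1% for libraries 1 to 5. In the survival knockouts it held 41.2%, 31.9%, 59.8%, 57.2% and 51.7%. By share, survival control 4 and the 5 survival knockouts thus lay below the other 14 libraries, which spanned 61.8% to 67.9%. The gap was small for the survival knockout at 59.8%. The share of Trbv26 also falls when another segment rises. With each survival library left out in turn, the log2 change of the Trbv26 value, knockouts over controls, ranged from -0.29 to -0.11.

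Trbv2 was the second segment of most libraries. The ratio of the 2 values was 0.379 to 0.504 over the acute libraries and 0.405 to 0.518 over the survival libraries. Trbv2 held 25.7% to 31.1% of the Trbv value in the acute libraries and 16.5% to 29.1% in the survival libraries. In the survival table the 6 libraries low in Trbv26 were also the 6 lowest in Trbv2. The acute table did not show this, since knockout 3 had the lowest Trbv26 share (61.8%) and the highest Trbv2 share (31.1%). These shares are of normalized counts, and the annotated segments are 367 bases (Trbv26), 560 bases (Trbv2) and 417 bases (Trbv1) long. Per length, Trbv26 held 71.8% to 74.9% in acute controls and 35.9% to 66.6% in survival knockouts, so the order of libraries changed little.

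Trbv1 was the segment that differed between libraries. Its share was 2.73% to 4.09% in the acute controls and 3.11% to 3.97% in the acute knockouts. Survival controls 1, 2, 3 and 5 had 3.05%, 4.09%, 3.36% and 3.41%, and survival control 4 had 15.2%. The survival knockouts had 39.6%, 42.0%, 8.93%, 14.98% and 16.1%. In survival knockout 2 it was the highest segment, ahead of Trbv26. All 5 survival knockouts lay above 4 of the 5 survival controls, while control 4 lay within their range.

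**Figure D1:**
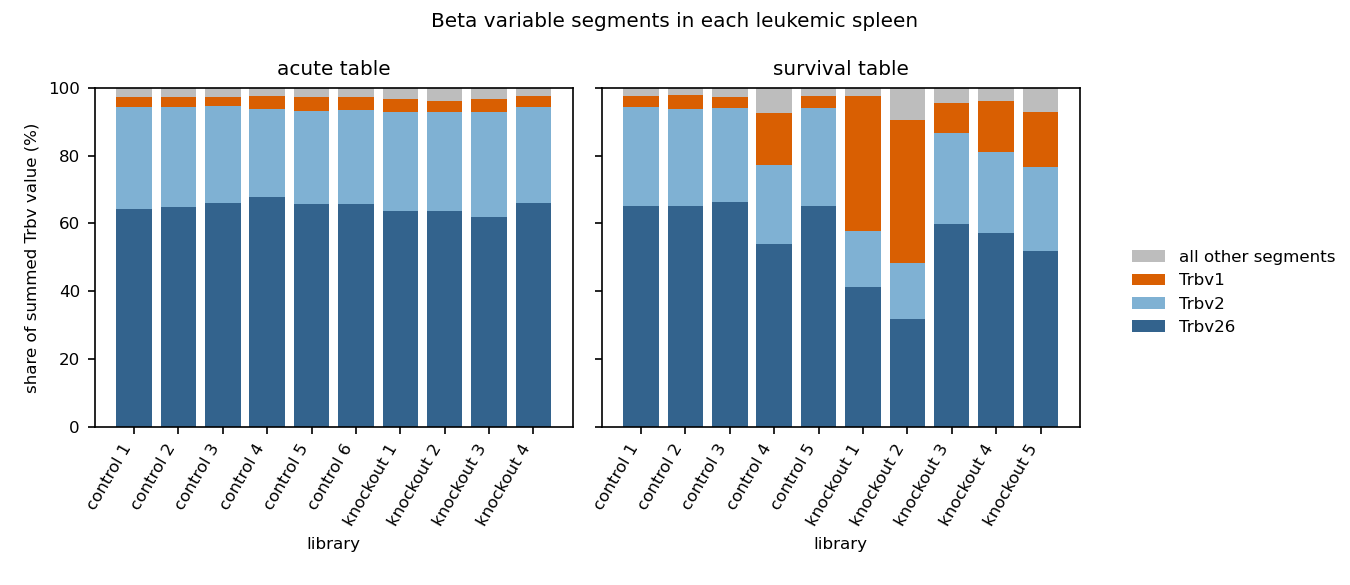
Share of the summed Trbv value (percent, from 0 to 100) held by Trbv26, Trbv2, Trbv1 and all other Trbv segments in each library, with the acute table on the left and the survival table on the right. The acute libraries look alike, with Trbv1 at 2.73% to 4.09%, whereas Trbv1 takes 39.6% and 42.0% in survival knockouts 1 and 2 and 15.2% in survival control 4.

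The 3 segments together left little to the rest. They held 96.0% to 97.6% of the Trbv value in the acute libraries. In the survival controls they held 92.5% in control 4 and 97.3% to 97.9% in the others. In the survival knockouts they held 97.5%, 90.4%, 95.5%, 96.1% and 92.9%. The summed value of all other Trbv segments was 196 to 257 in survival controls 1, 2, 3 and 5 and 671 in control 4. In survival knockouts it was 260, 1123, 472, 392 and 736. The number of Trbv segments with a value of at least 10 was 6 to 9 in those 4 controls, 13 in control 4, and 9, 15, 12, 13 and 13 in the knockouts.

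Which minor segments made up this rest differed from library to library. The following 5 segments were chosen after their values were seen. Trbv16 stood at 218 in survival knockout 2, at 94.97 in knockout 5, at 45.1 in knockout 4 and at 3.77 to 20.6 in the other survival libraries. Trbv5 stood at 167 in knockout 5, 95.8 in control 4 and 80.8 in knockout 2, and at 1.88 to 14.3 in the others. Trbv31, the segment annotated behind the constant genes on the opposite strand, stood at 142 in control 4 and at 4.67 to 21.6 elsewhere in that table. Trbv19 and Trbv20 were more evenly spread. Trbv19 stood at 34.1 to 125 in the knockouts, 71.6 in control 4 and 9.22 to 14.7 in the other controls. Trbv20 stood at 26.2 to 66.6 in the knockouts, 40.9 in control 4 and 1.98 to 8.33 in the other controls. The same 6 libraries were thus high in Trbv19, Trbv20 and Trbv1. By share of the Trbv value they were also the 6 highest in Trbv5 and Trbv16. The margin was small for Trbv16 in knockout 1, at 0.091% against 0.087% in control 2. Trbv31 stood out in control 4 alone.

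The likeness of 2 libraries was measured as the sum over segments of the smaller of their 2 shares, which is 100% for identical profiles. It is a description and was not tested. Over all 190 pairs it ran from 53.5% to 99.3% for Trbv, with a median of 93.3%. Acute control pairs shared 95.3% to 99.1%. Pairs of an acute and a survival control shared 82.6% to 99.0%, with a median of 98.0%. Survival knockout pairs shared 61.4% to 94.1%. Acute knockouts shared 93.3% to 98.9% with acute controls, with a median of 97.2%. With survival controls they shared 82.8% to 98.9%, with a median of 97.0%. Control leukemias of both experiments and acute knockouts therefore carried nearly the same Trbv profile, apart from survival control 4.

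The alpha locus on chromosome 14 gave a much weaker signal spread over more segments. The summed Trav value was 267 to 411 in the acute libraries and 305 to 641 in the survival libraries, or 3.42% to 5.73% of the Trbv value of the same library. Per length of the annotated segments, it was 3.57% to 6.06% of the Trbv value. Trac, the alpha constant gene, stood at 0 to 57.8, with 0 in acute controls 2 and 3, survival controls 3, 4 and 5 and survival knockout 1. Per 1000 bases of annotated transcript Trac reached at most 61.9, against 18682 to 30810 for Trbc1 and 17358 to 32390 for Trbc2. The constant gene of the delta chain, Trdc, which lies within the alpha locus and is deleted when an alpha chain is assembled, stood at 431 to 668, or 111 to 173 per 1000 bases. The 25 alpha joining segments of the acute table summed to 26.1 to 59.4 in its libraries. The 39 of the survival table summed to 42.1 to 169, so the 2 ranges cover different sets of segments. None passed the filter for testing. A value near 0 in such a table can be a failed estimate, and whether the low Trac values are such was not tested. Trac was tested in the acute table only, where its log2 fold change of 2.32 ± 1.12 (SE) was not called (adjusted p = 0.140, limma).

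Trav15n-1 was the highest alpha segment in 18 of the 20 libraries, and in 16 with Trav6n-7 and Trav6d-7 summed, since that pair then led in acute knockout 2 and survival knockout 2. It held 20.4% to 24.9% of the summed Trav value in the acute controls. The acute knockouts had 22.3%, 11.2%, 13.97% and 18.9%. In the survival table it held 17.2% to 22.6% in controls and 15.1% to 20.8% in knockouts. Trav18 held 5.59% to 13.1% in the acute libraries and 3.10% to 17.6% in the survival libraries, and it led in survival control 2. Trav21-dv12 held 4.21% to 13.1% and Trav14-1 held 1.77% to 11.7% over all libraries. Of the segments that reached 5% in any library, Trav13-5, Trav4-4-dv10, Trav16, Trav6-7-dv9, Trav15-1-dv6-1 and Trav15d-1-dv6d-1 each stayed under 10%.

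Survival knockouts 1 and 2 departed from this pattern in different ways, and both were libraries with a high Trbv1 share. In survival knockout 1 Trav16n had a value of 150, or 31.5% of the Trav value. It stood at 13.6 in knockout 2 and at 0 to 4.48 in all other libraries of both tables. In survival knockout 2 Trav6n-7 and Trav6d-7 together had a value of 171, or 26.7% of the Trav value, and Trav6-7-dv9 stood at 35.1 against 4.71 to 14.8 in the rest of that table. The pair summed to 7.09 to 25.04 in the other survival libraries. In the acute table the pair summed to 41.3, or 12.7%, in knockout 2 and to 3.80 to 12.7 in the others. The leading alpha segment thus differed between the 2 libraries with the highest Trbv1. Both were nevertheless highest in Trav16n and in the related Trav16d-dv11, which held 3.81% in knockout 1 and 2.52% in knockout 2 against 0 to 1.18% in the other survival libraries. Trav16 itself held 2.80% and 1.69% there, against 2.78% to 5.64% in the others. Neither Trav16n nor the pair passed the filter, and neither was tested.

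**Figure D2:**
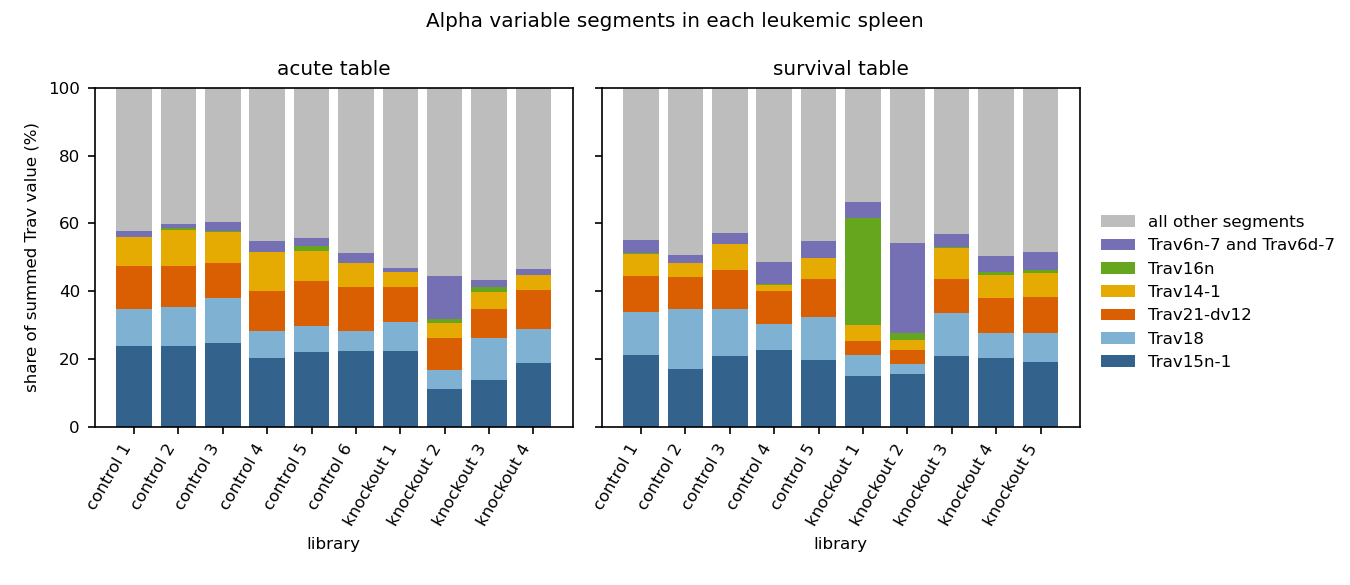
Share of the summed Trav value (percent, from 0 to 100) held by 6 named alpha segments or pairs and by all others in each library. Trav16n takes 31.5% in survival knockout 1, and Trav6n-7 with Trav6d-7 takes 26.7% in survival knockout 2 and 12.7% in acute knockout 2.

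The first comparison was of acute knockouts with acute controls. It asks how receptor RNA stood 72 h after deletion in established leukemia. Of 132 segments, 50 reached a value of 10 in at least 4 libraries and were tested with limma. Of these 19 were called lower in knockouts and 0 higher, at an adjusted p under 0.05 over all 16363 genes tested. The background was large, with 14.7% of all genes called lower and 16.7% called higher. The median log2 fold change was -0.34 over the tested segments and -0.023 over all genes tested. At an unadjusted p under 0.05, 23 segments passed (limma), a threshold at which all genes were not counted.

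Among the variable segments Trbv26 and Trbv2 fell together, although Trbv2 stood at a log2 change of 0.0023 when libraries were scaled to 7 genes of the CD3 complex and proximal kinases (described below). Trbv26 stood at 5095, 5992, 6570, 6888, 6254 and 6063 in controls and at 4880, 3613, 3965 and 5660 in knockouts. Knockouts 2 and 3 were lowest, and knockout 4 lay within the control range. The log2 fold change was -0.46 ± 0.12 (SE, adjusted p = 0.0117, limma). Trbv2 went from 2625 ± 155 (SD, n = 6) to 2081 ± 325 (SD, n = 4), a log2 change of -0.35 ± 0.090 (SE, adjusted p = 0.0123, limma). Trbv13-2, a minor beta segment, stood at 110 to 143 in controls and at 118, 70.4, 60.7 and 61.1 in knockouts, so that knockout 1 alone lay among the controls (log2 change -0.76, adjusted p = 0.0095). Trbv1 went from 320 ± 70.8 (SD, n = 6) to 250 ± 56.4 (SD, n = 4) and was not called (adjusted p = 0.167).

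The constant genes fell by a similar amount. Trbc1 stood at 18462 to 21864 in controls and 13768 to 18128 in knockouts, without overlap, and changed by -0.37 ± 0.081 on the log2 scale (SE, adjusted p = 0.00482, limma). Trbc2 stood at 16274 to 19314 in controls and 12012 to 15906 in knockouts, also without overlap, and changed by -0.38 ± 0.080 (SE, adjusted p = 0.00381, limma). Trbc1 shares 45.4% of its 31-base stretches with Trbc2, so part of their reads cannot be assigned to 1 of them with certainty. Trdc, the delta constant gene, changed by -0.21 ± 0.058 (SE, adjusted p = 0.0178, limma). Of the gamma constant genes on chromosome 13, Trgc1 changed by -0.54, Trgc4 by -0.40 and Trgc2 by -0.37, all called. Trgv6, Trgv4, Trgv2 and Trgv1, gamma variable segments, were called lower, with log2 changes from -0.89 for Trgv6 to -0.32 for Trgv1.

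Of the beta joining segments, 2 of 14 tested passed, a share near the 14.7% of all genes called lower. Of these, Trbj1-7 (log2 change -0.42, adjusted p = 0.0442) and Trbj2-6 (-0.40, adjusted p = 0.0478) were called lower. Trbj1-3, the highest of them, stood at 1107 ± 123 (SD, n = 6) in controls and 919 ± 174 (SD, n = 4) in knockouts and was not called (adjusted p = 0.0843).

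Of the alpha segments, 4 of 10 tested were called lower, against 14.7% of all genes tested. Trav14-1 stood at 26.2 to 48.2 in controls and 13.2 to 14.6 in knockouts, without overlap, a log2 change of -1.24 ± 0.22 (SE, adjusted p = 0.00161, limma). Trav15n-1 stood at 76.9 to 94.8 in controls and at 67.3, 36.4, 37.3 and 57.6 in knockouts, also without overlap (log2 change -0.80, adjusted p = 0.00841). Trav21-dv12 and Trav13-5 changed by -0.57 and -0.96 on the log2 scale. The delta variable segments Trdv1 and Trdv2-2 went the other way, at 0.78 and 0.81, and were not called (adjusted p = 0.0940 and 0.124).

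Other T-lineage RNA was lower by about the same amount on average, but single genes differed widely. The mean log2 level of 7 genes of the CD3 complex and the proximal kinases (Cd3e, Cd3d, Cd3g, Cd247, Lck, Zap70 and Lat) was lower by 0.35 in acute knockouts. Of 22 genes of a receptor complex and recombination list, 17 were called lower and 0 higher, against 14.7% and 16.7% of all genes tested. The list had a median log2 change of -0.33. That list ran from -0.63 for Rag2 to 0.19 for Cd4, which was not called. In bulk tissue fewer leukemic cells and less RNA per cell cannot be told apart. With libraries scaled to those 7 genes, 2 segments were called lower (Trav14-1 and Trav15n-1) and 2 higher (Trdv1 and Trdv2-2). With the mean score of B cell, neutrophil, monocyte and macrophage and NK cell genes as a covariate, 0 segments were called. Without acute knockouts 2 and 3 only Trav14-1 was called, and without either of them alone 11 of the 19 were.

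The Trbv profile itself differed little between acute groups. The share of the highest segment was 65.7% ± 1.249 (SD, n = 6) in controls and 63.8% ± 1.78 (SD, n = 4) in knockouts. This gave p = 0.0762 in an exact two-sided permutation test and 0.0857 after adjustment over 8 measures of the table. The effective number of segments, the inverse of the sum of squared shares, was 1.95 ± 0.035 (SD, n = 6) and 2.02 ± 0.064 (SD, n = 4), with an exact permutation p of 0.0429, adjusted 0.0571. The summed Trbv value was 7931 to 10144 in controls and 5684 to 8555 in knockouts and fell by 0.41 on the log2 scale (exact permutation p = 0.00952, adjusted p = 0.0190). The smallest p that 210 arrangements allow is 0.00476. Scaled to the 7 CD3 and kinase genes the difference in the sum was -0.063, and without acute knockouts 2 and 3 it was -0.20 with an adjusted p of 0.171.

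The Trav profile was more even in acute knockouts. The effective number of Trav segments was 9.59, 9.49, 9.14, 11.4, 10.5 and 10.9 in controls and 11.9, 21.2, 15.9 and 13.1 in knockouts, with no overlap (exact permutation p = 0.00476, adjusted p = 0.0190). The share of the highest segment fell from 22.9% ± 1.60 (SD, n = 6) to 16.6% ± 4.98 (SD, n = 4), with an exact permutation p of 0.0143, adjusted 0.0229. Knockouts 2 and 3, with the highest scores for other cell types, were also the most even. Each row counted alone here, although in knockout 2 the identical Trav6n-7 and Trav6d-7 together held 12.7%, above the 11.2% of Trav15n-1. The measures were not run with that pair alone as 1 segment. They were run with segments pooled by subgroup, which counts all Trav6 rows as 1 segment, and both calls held. With segments under a value of 10 set to 0, the difference in effective number was 0.66 in place of 5.34 and was no longer past the threshold, so most of it lay in segments of low value. Without knockouts 2 and 3 the differences were 2.34 in effective number and -2.29 percentage points in the top share, with adjusted p-values of 0.143 and 0.238. The 28 arrangements of 6 against 2 libraries allow no p under 0.0357, the value reached for the effective number, so a lost call under this setting says little. In the acute table Foxp3, Ccr7, S1pr1, Klf2 and Cxcr3, 5 of 11 tested genes of a mature peripheral T cell list, were called higher in knockouts. From the same list 2 others (Il2ra and Il7r) were called lower. Of all genes tested, 16.7% were called higher and 14.7% lower. The summed list, which Il2ra dominates, ran from 20843 to 23210 in controls and from 15526 to 19434 in knockouts. Their part in the Trav result was not tested.

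**Figure D3:**
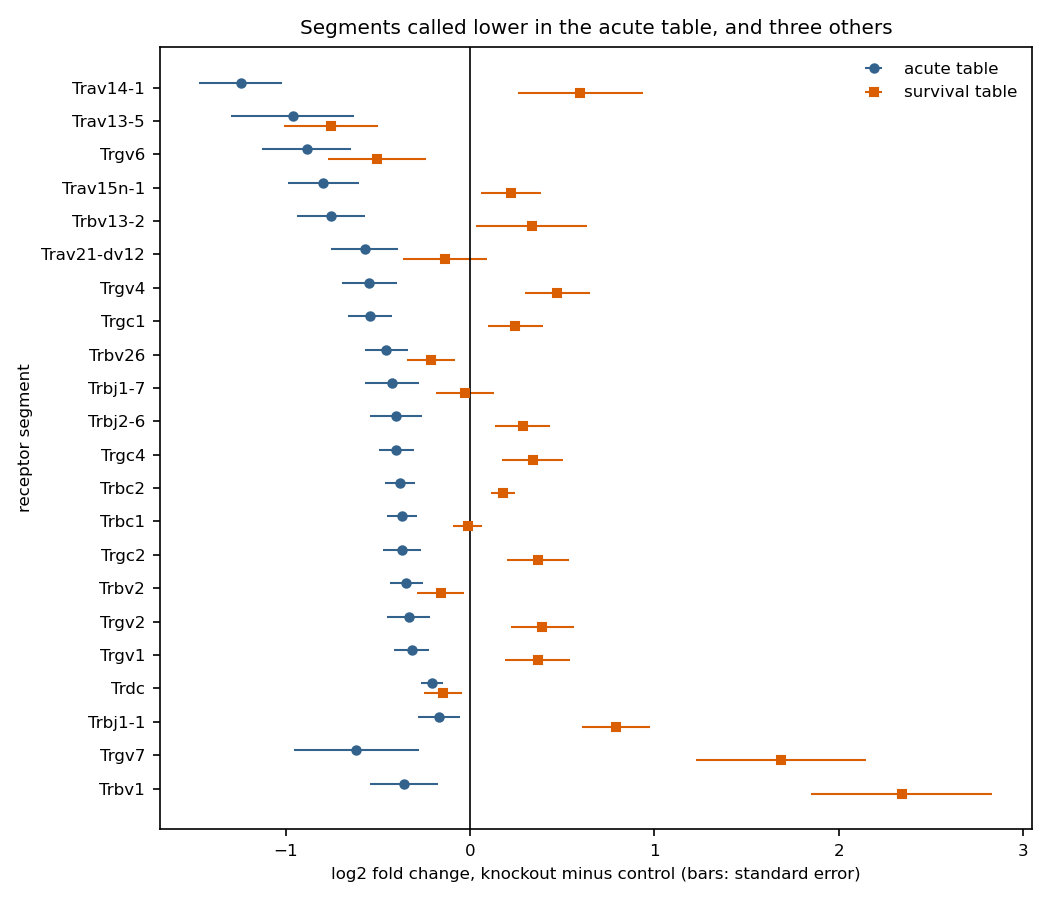
Log2 fold change of knockout over control (horizontal axis) with its standard error for the 19 segments called lower in the acute table and for Trbj1-1, Trgv7 and Trbv1, in the acute table (circles) and the survival table (squares). All 19 lie left of 0 in the acute table, whereas Trbv1 stands at 2.34 and Trgv7 at 1.68 in the survival table.

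The second comparison was of survival knockouts with survival controls. It asks which receptor RNA the leukemias carried that grew out after early deletion. Of 149 segments 50 reached a value of 10 in at least 5 libraries, and limma called 0 of them at an adjusted p under 0.05. The background was near 0 as well, with 0.0062% of all 16136 genes called higher and 0.0062% called lower, the latter being Acly. At an unadjusted p under 0.05, 16 segments passed (limma). All genes were not counted at that threshold, so this number has no background beside it. The median log2 fold change was 0.20 over the tested segments and 0.0087 over all genes.

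Trbv1 had the largest difference among the named segments. It stood at 302, 389, 315, 1367 and 279 in controls and at 4135, 4899, 931, 1500 and 1676 in knockouts. Control 4 lay above knockout 3, and the other 4 controls lay below every knockout. The log2 fold change was 2.34 ± 0.49 (SE), with an adjusted p of 0.185 (limma). Without control 4 it was 2.76 with an adjusted p of 0.0241, and without control 4 and knockouts 1 and 2 it was 2.06 with an adjusted p of 0.00308. Over all other settings tried the adjusted p lay between 0.127 and 0.643, the highest without knockouts 1 and 2. Without control 4, Trbv19 and Trbv20 were called as well (adjusted p = 0.0328 and 0.0178). The call on Trbv1 thus turned on whether control 4 was kept. These leaving-out settings for several libraries together were chosen after the data were seen.

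**Figure D4:**
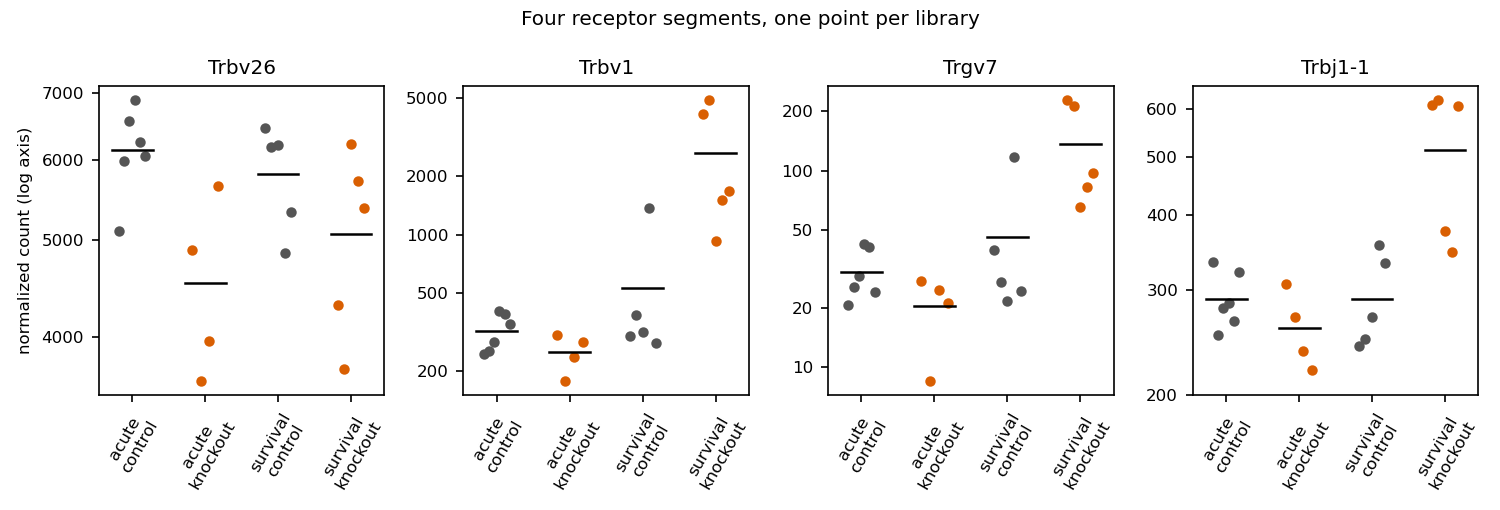
Normalized count (log axis) of Trbv26, Trbv1, Trgv7 and Trbj1-1 in each library, with 1 point per library and a bar at the group mean. Trbv1 and Trgv7 are high in the 5 survival knockouts and in 1 survival control, control 4, which stands at 1367 for Trbv1 and 117 for Trgv7.

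Other segments were high in the same libraries. Trgv7, a gamma variable segment, stood at 39.6, 27.1, 21.8, 117 and 24.4 in survival controls and at 228, 213, 65.3, 82.6 and 97.5 in knockouts (log2 change 1.68 ± 0.46 SE, adjusted p = 0.273, limma). As with Trbv1, control 4 lay among the knockouts, and knockouts 1 and 2 were highest. Trbj1-1, the first joining segment of the first beta cluster, stood at 242, 248, 270, 357 and 332 in controls and at 611, 623, 375, 347 and 608 in knockouts (log2 change 0.79 ± 0.18 SE, adjusted p = 0.229, limma). It held 4.09% to 5.93% of the summed Trbj value in controls and 10.9%, 9.59%, 5.55%, 5.94% and 7.36% in knockouts. Trbj2-3 stood at 176 ± 35.1 (SD, n = 5) in controls and 277 ± 51.8 (SD, n = 5) in knockouts (adjusted p = 0.241). Trbj1-3, the highest joining segment, stood at 1077 ± 106 (SD, n = 5) and 1042 ± 217 (SD, n = 5).

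The summed beta constant genes spanned overlapping ranges, and their ratio was highest in 2 knockouts. Trbc1 and Trbc2 together summed to 35954 to 40976 in survival controls and 40207 to 40930 in knockouts. The ratio of Trbc2 to Trbc1 was 1.22 in knockout 1 and 1.23 in knockout 2. It was 0.829 to 0.929 in the other 3 knockouts, 0.805 to 0.985 in the survival controls and 0.841 to 0.906 in all acute libraries. In normalized counts Trbc2 thus stood above Trbc1 in the 2 libraries with the highest Trbv1 share and in no other of the 20. Per 1000 bases it also stood above in survival control 4, at 25788 against 24571. Ptcra was lowest in the same 2 survival libraries, at 7722 and 7901 against 9929 to 13183 in the other 8. Other genes of its receptor complex and recombination list differed there. Rag1 and Cd8a were also lowest in those 2 libraries. Cd5 was highest, at 2138 and 2255, and Dntt, at 21620 and 20432, lay within the range of the other libraries. The gamma constant genes summed to 7908 ± 1568 (SD, n = 5) in controls and 10016 ± 2319 (SD, n = 5) in knockouts, and none was called.

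The Trbv profile was less dominated by 1 segment in survival knockouts. The share of the highest segment was 63.2% ± 5.15 (SD, n = 5) in controls and 50.4% ± 8.52 (SD, n = 5) in knockouts, with an exact two-sided permutation p of 0.0238, adjusted over the 8 measures 0.0381. The effective number was 1.95, 1.97, 1.93, 2.70 and 1.96 in controls and 2.82, 3.27, 2.29, 2.46 and 2.80 in knockouts (exact permutation p = 0.0238, adjusted p = 0.0381). The summed Trbv value was 8185 to 9903 in controls and 10017 to 11668 in knockouts, without overlap, and was higher by 0.21 on the log2 scale (exact permutation p = 0.00794, adjusted p = 0.0212). Less the highest segment of each library, the sum was higher by 0.63 on the log2 scale, with the same p. The smallest p that 252 arrangements allow is 0.00794. Without knockouts 1 and 2 the difference in the top share was -6.94 percentage points, and the adjusted p was 0.143 for the top share and effective number and 0.107 for both sums. The top share was no longer past the threshold when any of 7 of the 10 libraries was left out (controls 1, 2, 3 and 5 and knockouts 1, 2 and 5), with adjusted p-values up to 0.0952. The effective number lost its call without the same 7 libraries. The summed value lost it without any of 5 (controls 1, 2, 3 and 5 and knockout 2), again up to 0.0952, although its direction held in all 10 cases.

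The Trav profile gave no difference in evenness at endpoint. Its effective number was 11.1 ± 0.49 (SD, n = 5) in controls and 11.8 ± 2.72 (SD, n = 5) in knockouts (exact permutation p = 0.619, adjusted p = 0.707). The knockouts ranged from 7.28 in knockout 1, where Trav16n led, to 13.7 in knockout 5. With each row counted alone, knockout 2 had 13.5, although the identical Trav6n-7 and Trav6d-7 together held 26.7% there. The summed Trav value was 345 ± 36.9 (SD, n = 5) in controls and 459 ± 109 (SD, n = 5) in knockouts (exact permutation p = 0.0397, adjusted p = 0.0529). Less the highest segment, it was higher by 0.37 on the log2 scale (exact permutation p = 0.00794, adjusted p = 0.0212). It was higher by 0.20 with an adjusted p of 0.107 without knockouts 1 and 2, and it missed the threshold when any control or knockout 2 was left out.

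Genes of a mature peripheral T cell list were set beside these libraries. Of the 10 genes of the mature peripheral T cell list tested in the survival table, 0 were called, and the summed list, which Il2ra dominates, ran from 20384 to 24586 in controls and from 23164 to 27694 in knockouts. Foxp3, which defines regulatory T cells, stood at 0.598 to 18.4 in controls and 2.35 to 14.002 in knockouts, and Cd40lg at 0.976 to 7.88 and 0 to 5.75. Icos, a costimulatory receptor, stood at 72.6, 71.8, 69.1, 109 and 61.7 in controls and at 341, 404, 144, 161 and 111 in knockouts. Ccr7, a homing receptor of lymphocytes, stood at 27.3 to 54.3 in controls and 103, 115, 64.3, 43.7 and 48.9 in knockouts. Klf2, a transcription factor of resting T cells, stood at 139 to 231 in controls and 336, 454, 263, 218 and 273 in knockouts. Tnfrsf4, a costimulatory receptor, stood at 26.0 to 36.3 in controls and 14.4, 8.19, 38.5, 17.3 and 20.3 in knockouts. Icos, Ccr7 and Klf2 were thus highest, and Tnfrsf4 lowest, in the 2 libraries with the highest Trbv1, while Foxp3 and Cd40lg were low in every library of the table and did not follow it. These 6 genes were chosen from the list after their values were seen. Of its other tested genes, Il2ra and Ikzf2 were also highest in those 2 libraries. Both were high in every library of the table, at 15155 or above for Il2ra and 2893 or above for Ikzf2. Ctla4, S1pr1, Il7r and Cxcr3 were not, with S1pr1 at 82.8 in knockout 1 and 98.2 in knockout 3. Whether the Trbv1 signal came from leukemic cells or from other T cells was not tested.

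The last comparison was of the 2 fold changes, survival less acute, over the 46 segments tested in both tables. The tables share no libraries, and each fold change is taken within its own table. Of the 46, 17 were called higher in the survival comparison and 0 lower, at an adjusted p under 0.05 over 15673 genes (limma). Over all genes 9.39% were called higher and 10.9% lower. The median difference was 0.52 over the segments and 0.032 over all genes.

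Among the called segments Trbv1 had the largest difference, 2.70 ± 0.59 on the log2 scale (SE, adjusted p = 0.00271, limma), followed by Trgv7 with 2.30 ± 0.61 (SE, adjusted p = 0.0115, limma). Trbv20 and Trbv19 differed by 1.99 and 1.58 and were not called (adjusted p = 0.0593 and 0.0960). Trav14-1 differed by 1.84, and Trbv13-2, Trgv4 and Trav15n-1 differed by 1.09, 1.02 and 1.02. Trbj1-1 differed by 0.96 (adjusted p = 0.00585), Trbj2-3 by 0.82, Trgc1 by 0.79 and Trbj2-6 by 0.69. Trbc2 differed by 0.56 ± 0.10 (SE, adjusted p = 0.000729, limma) and Trbc1 by 0.36 (adjusted p = 0.0367). The call on Trbc1 was lost when any of 11 of the 20 libraries was left out. Scaled to the 7 CD3 and kinase genes, which were lower by 0.35 in acute knockouts and by 0.0064 in survival knockouts, 5 segments were called: Trbv1, Trgv7, Trav14-1, Trav15n-1 and Trbj1-1. Without acute knockouts 2 and 3, 4 were called, namely Trbv1, Trbc2, Trbj1-1 and Trav14-1, and without knockout 2 or 3 alone 10 and 11 were. With the covariate for B cell, neutrophil, monocyte and macrophage and NK cell genes, 0 were called. That covariate separated the acute groups fully, so this setting cannot decide here either.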

How the data were processed

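RNA of leukemic spleens was measured in 20 libraries by strand-specific bulk RNA sequencing. Per the submitters' processing notes, kallisto 0.46.0, DESeq and build GRCm39 were used. The deposited values are a normalized count signal, scaled within each table by the authors and not whole reads, so read depth is unknown. Members and gene lists were chosen with earlier results of these data known. From the values log2(value + 1) was tested with limma 3.58.1 (R 4.3.3, lmFit and eBayes with trend) on genes that reached 10 in at least 4 acute or 5 survival libraries, adjusted by Benjamini-Hochberg over all genes and called under 0.05. Fold changes are on that scale, which understates low genes. Shares, effective numbers and sums were compared by exact two-sided permutation tests, adjusted over 8 measures per table. Both tests were checked on simulated data. Named were segments with at least 5% of the Trbv or Trav value in any library, constant genes, the leading joining segments, and up to 8 largest called rises and falls with a mean of at least 50. Of 161 segments 151 matched GENCODE M21 (build GRCm38) by symbol for order, length and sequence. Its coordinates were not used. Alternatives were the pseudocount, the filter, the scaling, a covariate, a replicate block and leaving out libraries. A gene of the mature peripheral T cell list is not reported here, and counts and sums of that list leave it out.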

Additional observations from a re-analysis of the deposited data

Results flagged for a closer look

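In 148 groups of 4 to 6 libraries, 18 had a highest or lowest library far from the rest. The cutoff is passed by about 1 in 20 independent groups of normally distributed values. These groups overlap, such as Trav6n-7 and Trav6d-7 with identical values, so the 18 cannot be set against that rate. Survival control 4 was far from the other controls in Trbv1 (1367), Trgv7 (117.4), the share of the highest Trbv segment (53.98%) and the effective number of Trbv segments (2.704). Survival knockout 2 was far from the other knockouts in Trav6n-7 and Trav6d-7 (85.44 each), Trav6-7-dv9 (35.1), the log2 summed Trbv value (13.51) and the log2 Trav sum less its highest segment (9.083). Survival knockout 1 was far above the others in Trav16n (149.9). In the acute table knockout 2 was high in Trav6n-7 and Trav6d-7 (20.65 each), and knockout 1 in Trbv13-2 (118.4). Acute control 1 was low in Trbc2 (16270), Trdc (622.2) and the log2 Trbv sum less its highest segment (11.47). Acute control 6 was high in Trav16 (17.84) and Trbj2-6 (358.6).

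The log2 fold change differed between the survival and acute comparisons (limma, adjusted p under 0.05) for 12 named segments, higher in the survival comparison each time. The differences were 2.698 for Trbv1, 2.3 for Trgv7, 1.841 for Trav14-1, 1.09 for Trbv13-2, 1.022 for Trgv4 and 1.019 for Trav15n-1. They were 0.9608 for Trbj1-1, 0.8247 for Trbj2-3, 0.7878 for Trgc1, 0.6852 for Trbj2-6, 0.5609 for Trbc2 and 0.3573 for Trbc1.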

How the results depend on the processing

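Counts of acute segments called depended on the libraries and scaling. Lower calls numbered 19, and 2 when scaled to the CD3 and kinase genes (with 2 higher), 0 with the other-cell score as covariate, 1 without acute knockouts 2 and 3, and 11 to 24 leaving out each library, lowest without knockout 2 or 3. Higher calls numbered 4 without a filter (Traj3, Trav11d, Trav7-3 and Trbv12-1), and 0 to 1 leaving out each library (Trdv1 without knockout 1). The replicate numbers did not pair the libraries, whose same-number correlations were -0.066 to 0.14 in the acute and -0.020 to 0.13 in the survival table. With a replicate block 7 segments were called lower in the acute table, 0 in the survival table, and 12 in the difference of fold changes. Survival calls numbered 0, and 0 to 3 leaving out each library (3 without control 4), and 1 without control 4 and knockouts 1 and 2. Calls on the difference of fold changes numbered 17, and 5 when scaled to the CD3 and kinase genes, 0 with the covariate, 4 without acute knockouts 2 and 3, and 10 to 18 leaving out each library, lowest without acute knockout 2.

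With the covariate the acute log2 changes turned to 0.095 for Trav15n-1, 0.13 for Trbv26, 0.10 for Trbj1-7, 0.056 for Trbv2, 0.85 for Trbv1, 0.043 for Trbc1 and 0.025 for Trbc2, and the Trbv2 difference of fold changes to -0.023. The covariate separated the acute groups fully, so these turns cannot be assigned to other cells or to the knockout. Scaled to the CD3 and kinase genes, acute Trbv2 turned to 0.0023, the acute Trbv rest sum to 0.016, the acute Trav sum to 0.051 and its rest sum to 0.16. The differences of fold changes turned to -0.10 for Trbv26 and -0.15 for Trbv2. With that scaling the acute Trbv sum (-0.063) was no longer past the threshold, and the survival Trav sum was 0.40 and past it. With segments under 10 set to 0, the acute Trav top share (-4.78) and effective number (0.66) and the survival Trav rest sum (0.33) lost the call, and the acute Trav rest sum (-0.46) gained it. Pooled by subgroup, the survival Trav effective number was -0.33. Per length, the survival Trav top share was -0.55 and the Trav sum 0.42, the latter past the threshold.

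Without acute knockouts 2 and 3, where no p under 0.0357 is possible, 5 measures lost the call. These were the Trbv sum (-0.20), Trbv rest sum (-0.16), Trav top share (-2.29), Trav effective number (2.34) and Trav sum (-0.28), the last 2 at that smallest p. Without survival knockouts 1 and 2, the Trbv top share (-6.94), effective number (0.41), sum (0.16) and rest sum (0.42) and the Trav rest sum (0.20) lost it. The Trav top share turned to -0.25, the log2 change of Trbv2 to 0.041 and that of Trbc1 to 0.082. Without survival control 4 as well, the 5 measures named first were -9.24, 0.56, 0.16, 0.49 and 0.23, and Trbc1 was 0.041.

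Leaving out each acute library, the Trbv top share ranged from -2.75 to -1.30, the effective number from 0.051 to 0.10, the sum from -0.51 to -0.31 and the rest sum from -0.40 to -0.24. The Trav top share ranged from -8.22 to -4.50, the effective number from 3.46 to 6.54, the sum from -0.34 to -0.24 and the rest sum from -0.26 to -0.14. Without knockout 3 all 5 acute measures that had passed missed the threshold (adjusted p = 0.0571). Leaving out each survival library, the Trbv top share ranged from -15.1 to -10.5, the effective number from 0.49 to 0.77, the sum from 0.16 to 0.23 and the rest sum from 0.53 to 0.70. The Trav top share ranged from -1.40 to 2.59, the effective number from 0.27 to 1.89, the sum from 0.26 to 0.45 and the rest sum from 0.21 to 0.42. Survival Trbc1 ranged from -0.055 to 0.027. The cause of these changes was not tested. Read depth is unknown, so values of a few counts carry an unstated error.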
